A study of Homo sapiens with 6 samples.

Results

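Cadherins, catenins and EPCAM, the genes of cell-to-cell adhesion by which epithelial and mesenchymal tumour cells are commonly told apart, were followed in a lung-metastatic breast cancer line. The set was fixed by gene symbol and listed 10 genes: CDH1, CDH2, CDH3, CDH4, CDH11, CTNNA1, CTNNB1, CTNND1, JUP and EPCAM. A probe set was annotated to 8 of them, out of 17687 genes measured, and each of the 8 had a single probe set. These were TC1600008209.hg.1 for CDH1, TC1800008358.hg.1 for CDH2, TC1600011418.hg.1 for CDH3, TC1600010561.hg.1 for CDH11, TC0500008794.hg.1 for CTNNA1, TC0300007136.hg.1 for CTNNB1, TC1700010686.hg.1 for JUP and TC0200007506.hg.1 for EPCAM. CDH4 and CTNND1 were not analysed here. The arrays fell into a group labelled siPGC1alpha and a group labelled sicontrol, with 3 arrays each. All 6 samples were total RNA from cultured 4175 cells, the lung variant of MDA-MB-231, an established human breast cancer line that is triple-negative. The siPGC1alpha cells received an siRNA against PPARGC1A, which encodes the transcriptional coactivator PGC-1alpha, and the sicontrol cells a control siRNA, in both cases for 48 hours beginning 24 hours after plating. The labels name neither the siRNA sequences nor whether the variant is 1 clone. They also do not say whether replicates were separate cultures, so the p-values rest on a spread that may be only technical.

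Classical cadherins are transmembrane proteins that bind the same or a related cadherin on the neighbouring cell. Their cytoplasmic tails hold beta-catenin or plakoglobin, which in turn bind alpha-catenin and through it the actin cytoskeleton, while p120-catenin, the product of CTNND1, binds nearer the membrane and keeps cadherins at the surface. Beta-catenin that is not bound to cadherin also acts in the nucleus as the coactivator of WNT signalling. Epithelial cells typically rely on E-cadherin, and loss of E-cadherin with gain of N-cadherin or cadherin-11 is a textbook feature of epithelial-mesenchymal transition. MDA-MB-231 is widely used as a mesenchymal line with little or no E-cadherin.

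Of the 3 measured catenin genes, CTNNB1 read below and CTNNA1 and JUP above their control means on the array of siPGC1alpha replicate 1. RefSeq promoter windows of the 3 genes (GRCh38.p14, 250 bases before to 50 after a start site, 5′ to 3′ on the gene's strand) are shown to set their sequences side by side. Capitals mark the E-box bound by Snail and ZEB repressors of cadherin genes, CAGGTG or its reverse complement CACCTG. The CTNNB1 window lies at chr3:41199255-41199554 on the plus strand, the CTNNA1 window at chr5:138753175-138753474 on the plus strand and the JUP window at chr17:41785927-41786226 on the minus strand.
CTNNB1: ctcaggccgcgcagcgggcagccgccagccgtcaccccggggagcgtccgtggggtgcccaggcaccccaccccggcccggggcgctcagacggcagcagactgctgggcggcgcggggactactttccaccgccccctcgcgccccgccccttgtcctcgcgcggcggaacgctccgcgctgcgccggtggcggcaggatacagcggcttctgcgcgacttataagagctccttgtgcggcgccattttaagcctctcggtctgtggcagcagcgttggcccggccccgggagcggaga
CTNNA1: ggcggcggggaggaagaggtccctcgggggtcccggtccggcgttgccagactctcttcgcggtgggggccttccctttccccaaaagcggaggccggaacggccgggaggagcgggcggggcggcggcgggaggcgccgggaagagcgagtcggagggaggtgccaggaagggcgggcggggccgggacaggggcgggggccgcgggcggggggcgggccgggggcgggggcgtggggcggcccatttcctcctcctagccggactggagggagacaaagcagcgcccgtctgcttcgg
JUP: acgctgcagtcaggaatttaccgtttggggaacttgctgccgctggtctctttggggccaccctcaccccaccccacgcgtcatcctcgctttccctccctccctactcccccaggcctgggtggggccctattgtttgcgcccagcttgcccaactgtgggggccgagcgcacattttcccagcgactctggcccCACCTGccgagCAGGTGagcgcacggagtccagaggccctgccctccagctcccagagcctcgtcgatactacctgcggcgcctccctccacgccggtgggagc
The JUP window held 2 such E-boxes, starting 54 and 43 bases before the start site and not overlapping. The CTNNB1 and CTNNA1 windows held 0. Of 35116 promoter windows of the same length, 20.6% held at least 1 of these E-boxes and 3.49% held 2 or more. The CTNNB1 window carried the letters TATAA and, overlapping them, the reverse complement TTATA, which 20.4% of windows hold on either strand. The GC box GGGCGG or CCGCCC occurred 9 times in the CTNNA1 window, 3 times in that of CTNNB1 and 0 times in that of JUP, and 45.0% of windows held at least 1. RefSeq gave 11 windows for 5 of the 10 listed genes, of which CTNNA1 has 4 and JUP 2. The CTNNA1 window shown is its most upstream and the JUP window its more downstream, picked for its E-boxes. The shares over all windows are of windows not picked in this way, so they do not measure how rare the JUP window is. A CDH4 window, not shown, held 1 E-box. Whether the windows bear on the readings of replicate 1 was not tested. The more upstream JUP window held 0 E-boxes and 3 GC boxes. A match is a run of letters and no evidence of binding.

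The target of the siRNA was not lower on the arrays labelled siPGC1alpha. PPARGC1A read 7.95, 6.52 and 6.47 on siPGC1alpha replicates 1, 2 and 3, against 6.45, 6.49 and 6.49 on sicontrol replicates 1, 2 and 3, on the log2 scale of the deposited signals. The knockdown is thus not seen at the transcript level on these arrays, and every direction below refers to the labels. The array of siPGC1alpha replicate 1 stood apart: its Pearson correlation with the other 5 arrays was 0.585 to 0.604, and that among the 5 was 0.995 to 0.996, both taken over genes, which are no independent replicates. On it, probe sets that were dim on the control arrays read higher and bright ones lower. The values of each gene on that array are therefore given apart, and every comparison is given with and without it. Of the markers known to be high in MDA-MB-231, 9 of 9 measured were brighter on the control arrays than 95% of the 612 negative control probe sets. So were 9 of 10 luminal markers, PGR being below, so this threshold does not separate the 2 types.

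Cadherins, catenins and EPCAM gave 0 genes past the test of siPGC1alpha against sicontrol. Without siPGC1alpha replicate 1 their log2 differences (siPGC1alpha minus sicontrol) ranged from -0.23 for CDH11 to 0.071 for CDH2, and the 95% interval of each reading lay within a 2-fold change in either direction. For CDH1 and CDH2, which read below the 95th percentile of the negative controls on all 6 arrays, the interval limits the reading and sets no limit on a change in the transcript. By limma 0 of 8 passed an adjusted p of 0.05 over 5 arrays and 0 of 8 over 6 arrays, where 0% of the 17687 genes passed in either fit. At an unadjusted p under 0.05 there were again 0 of 8 in both fits, against 4.44% of all genes over 5 arrays and 0.017% over 6. The median difference of the 8 genes was -0.042 without replicate 1, where that of all genes was 0.0080, and 0.35 with it, where that of all genes was 0.19. In bulk RNA, fewer cells of a type and less RNA per cell cannot be told apart.

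Among the cadherins, CDH1 encodes E-cadherin, the cadherin of epithelial junctions. It read 5.44, 4.03 and 3.86 on siPGC1alpha replicates 1, 2 and 3, against 3.75, 3.91 and 4.26 on the 3 sicontrol arrays. Replicate 1 was above every control, and replicates 2 and 3 lay inside the control range. The CDH1 probe set was within the spread of background: 71.1% and 64.1% of the negative control probe sets were dimmer than it on siPGC1alpha replicates 2 and 3, and 63.1% to 77.1% were on the control arrays. Its difference without replicate 1 was -0.026 (SE 0.15, limma adjusted p = 0.9998), with an interval of 0.763 to 1.26 as a ratio. With all 6 arrays it was 0.47 (SE 0.47, limma adjusted p = 0.663), which came from replicate 1.

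CDH2 encodes N-cadherin, found in neural and mesenchymal cells. It read 5.92, 4.71 and 4.49 on siPGC1alpha replicates 1, 2 and 3, against 4.73, 4.45 and 4.41 on the sicontrol arrays. Replicates 2 and 3 again lay inside the control range, and 79.4% to 84.0% of the negative controls were dimmer on the control arrays. The difference without replicate 1 was 0.071 (SE 0.12, limma adjusted p = 0.9998). Neither the epithelial nor the neural cadherin therefore gave a signal above the 95th percentile of negative controls on the control arrays, so a difference in either may not be detectable at this signal.

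CDH3, whose product P-cadherin is typical of basal epithelium, is the protein-coding gene next to CDH1 in RefSeq. It read 8.08, 6.48 and 6.83 on siPGC1alpha replicates 1, 2 and 3, against 6.63, 6.99 and 6.64 on the sicontrol arrays, and was brighter than at least 99.0% of negative controls on every control array. Replicate 2 was below and replicate 3 inside the control range. Without replicate 1 the means were 6.65 ± 0.25 (SD, n = 2) in siPGC1alpha cells and 6.76 ± 0.20 (SD, n = 3) in sicontrol cells, a difference of -0.10 (SE 0.15, limma adjusted p = 0.9998) that was smaller than either SD.

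CDH11 encodes cadherin-11, a cadherin of mesenchymal and bone-forming cells that is also found in invasive breast cancer lines. It read 7.52, 6.19 and 6.48 on siPGC1alpha replicates 1, 2 and 3, against 6.59, 6.50 and 6.58 on the sicontrol arrays. Replicate 1 lay above and replicates 2 and 3 below all controls. Its difference without replicate 1, -0.23 (SE 0.10), was the furthest from 0 of the 8 and corresponds to a ratio of 0.855 with an interval of 0.722 to 1.01 (unadjusted p = 0.065, limma adjusted p = 0.9998). Replicate 2 carried most of it: the difference was -0.082 without replicate 2 as well and -0.37 without replicate 3.

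Among the catenins, CTNNB1 encodes beta-catenin. It read 6.41, 11.52 and 11.51 on siPGC1alpha replicates 1, 2 and 3, against 11.50, 11.45 and 11.39 on the sicontrol arrays. Replicates 2 and 3 lay just above all controls, while the reading of replicate 1 was -5.04 from the control mean. That reading was below the 95th percentile of the negative controls of its array, 6.57, so it gives only a bound. Against that percentile the reading was at least 29.5-fold lower than the control mean. The bound compares arrays of unlike background and signal range, so it sets no limit on a change in the transcript. Without replicate 1 the means were 11.52 ± 0.0020 (SD, n = 2) in siPGC1alpha cells and 11.45 ± 0.054 (SD, n = 3) in sicontrol cells. The difference of 0.064 (SE 0.074, limma adjusted p = 0.9998) has an interval of 0.925 to 1.18 as a ratio. On the log2 scale that interval was the narrowest of the 8 genes. With all 6 arrays the difference was -1.64 (SE 1.39, limma adjusted p = 0.663), opposite in sign and set by 1 array.

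CTNNA1 encodes alpha-catenin, the link between the complex and actin. It read 12.35, 11.06 and 11.14 on siPGC1alpha replicates 1, 2 and 3, against 11.18, 11.20 and 11.11 on the sicontrol arrays. Replicate 1 was above every control, by 1.19 over their mean, replicate 2 below and replicate 3 within them. The difference without replicate 1 was -0.058 (SE 0.076, limma adjusted p = 0.9998), and 0.36 (SE 0.39, limma adjusted p = 0.663) with all 6 arrays.

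JUP encodes plakoglobin, which can take the place of beta-catenin on cadherin tails and also sits in desmosomes. It read 9.24, 7.66 and 7.62 on siPGC1alpha replicates 1, 2 and 3, against 7.96, 7.70 and 7.82 on the sicontrol arrays. Replicates 2 and 3 lay below all controls, replicate 2 by little, and replicate 1 above them. The difference without replicate 1 was -0.19 (SE 0.095, unadjusted p = 0.094, limma adjusted p = 0.9998), a ratio of 0.879 with an interval of 0.751 to 1.03.

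EPCAM encodes an adhesion glycoprotein of epithelial cells that is also cut to release a signalling fragment. It read 6.90, 7.31 and 7.59 on siPGC1alpha replicates 1, 2 and 3, against 7.44, 7.53 and 7.32 on the sicontrol arrays. Replicate 1 was below all controls, and replicates 2 and 3 lay to either side of the control range. The difference was 0.019 (SE 0.11, limma adjusted p = 0.9998) without replicate 1 and -0.16 (SE 0.26, limma adjusted p = 0.695) with it. Unlike the probe sets of CDH1 and CDH2, that of EPCAM was brighter than at least 99.7% of negative controls on every control array.

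**Figure D1:**
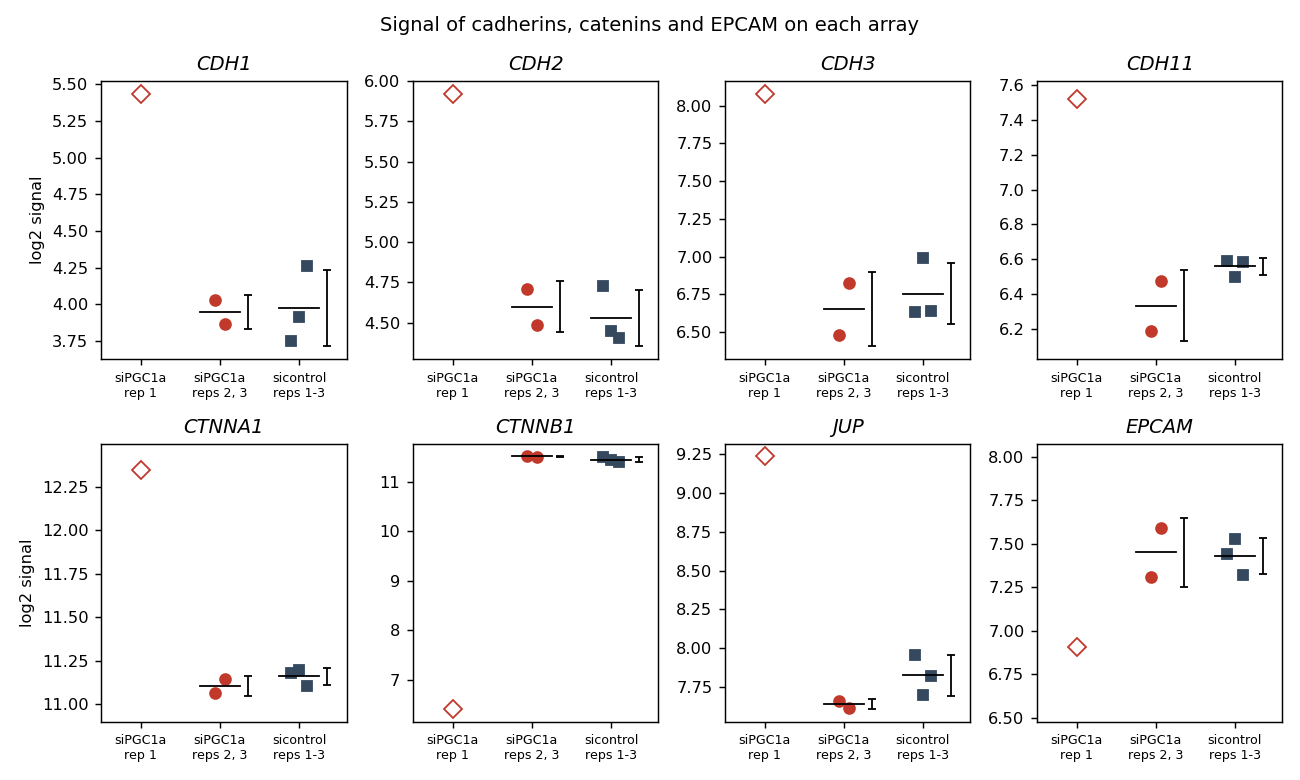
Log2 signal of the 8 measured genes on each array, with siPGC1alpha replicate 1 as an open diamond, replicates 2 and 3 as circles, sicontrol replicates as squares, lines at the means and bars of 1 SD. Each panel has its own axis. Replicate 1 lies above the other arrays for 6 genes and below them for CTNNB1 (6.41) and EPCAM (6.90).

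Over the 5 arrays without replicate 1 the groups did not overlap for 3 of the 8 genes. CTNNB1 was the 1 gene with siPGC1alpha higher, as were 11.3% of all genes, and CDH11 and JUP were the 2 with siPGC1alpha lower, as were 8.42% of all genes. In either direction 19.7% of all genes did not overlap. Over 6 arrays the groups overlapped for all 8, where 7.28% of all genes did not overlap, 5.42% with siPGC1alpha higher and 1.85% with it lower. The half-width of the 95% interval ran from 0.18 to 0.36 on the log2 scale without replicate 1, with a median of 0.22 over all genes. With it the half-width ran from 0.64 to 3.37, with a median of 0.99, and only the interval of EPCAM stayed within a 2-fold change.

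**Figure D2:**
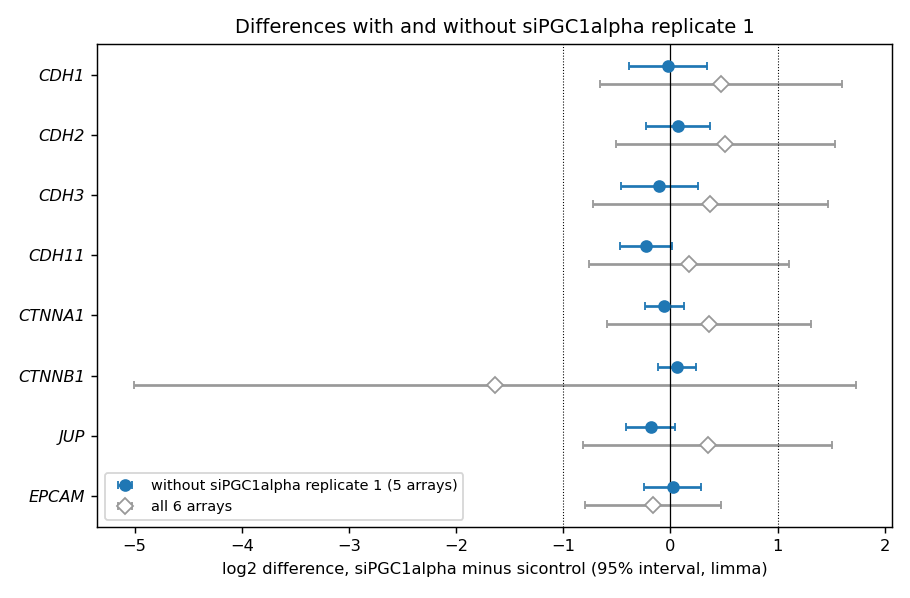
Log2 differences, siPGC1alpha minus sicontrol, with 95% limma intervals, without siPGC1alpha replicate 1 (circles) and with all 6 arrays (diamonds). Dotted lines mark a 2-fold change. The 5-array intervals all include 0 and lie within the dotted lines, and the 6-array interval of CTNNB1 runs from -5.01 to 1.73.

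On siPGC1alpha replicate 1 itself, which as a single array allows no test, the background was higher too. The 95th percentile of the negative controls was 6.57 there, 5.50 and 5.60 on replicates 2 and 3, and 5.38 to 5.56 on the controls. The median of the ERCC spike-in control probe sets was 6.50 there, 5.05 and 5.06 on replicates 2 and 3, and 5.04 to 5.11 on the controls. CDH1 and CDH2 stayed below the percentile on that array, with 83.5% and 89.1% of the negative controls dimmer, so their higher readings are not readings above background. CDH1, CDH2, CDH3 and CDH11 lay 1.46, 1.40, 1.32 and 0.96 above their control means. Of the catenins, JUP lay 1.41 and CTNNA1 1.19 above, and CTNNB1 -5.04 from its mean, while EPCAM lay -0.53 from its own. In all, 5 of the 8 were higher by 1 or more, as were 38.9% of all genes, and 1 was lower by 1 or more, as were 25.3%.

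Differences on that array varied with control signal, and CTNNA1 and CTNNB1 departed from genes of like signal in opposite directions. With all genes put into 10 equal bins by mean control signal, both belong to bin 10, the brightest, whose median difference on replicate 1 was -2.13, with 10th and 90th percentiles of -4.60 and 0.18. In that bin 98.4% of genes lay below CTNNA1 and 6.22% below CTNNB1. JUP and EPCAM share bin 6, where the median was 0.47, and 84.1% of its genes lay below JUP and 29.0% below EPCAM. CDH1 in bin 1 had 75.8% of the genes of its bin below it, CDH2 in bin 2 58.1%, CDH11 in bin 4 36.6% and CDH3 in bin 5 65.2%. On replicate 1 the CTNNB1 reading of 6.41 was brighter than 93.3% of the negative controls, and thus below the percentile used here for background, against a control mean of 11.45 above all of them.

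**Figure D3:**
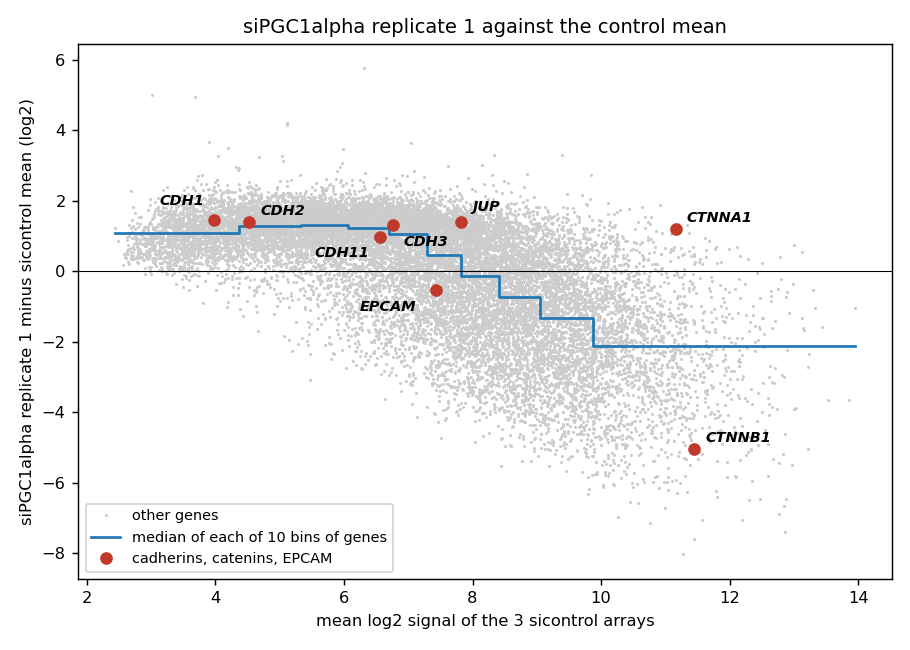
Difference of siPGC1alpha replicate 1 from the sicontrol mean (log2, vertical axis) against the sicontrol mean (log2 signal, horizontal axis) for all genes (grey) and the 8 genes (red), with the median of each of the 10 bins of genes as a blue step. CTNNA1 at 1.19 and CTNNB1 at -5.04, a reading below the background percentile of that array, lie on opposite sides of the step at -2.13.

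Marker genes of other cell types were read on the same array beside genes of like signal. Of the luminal markers 9 of 10 were above their control means on replicate 1, with a median difference of 1.39, where the bins of these markers held on average 77.3% of genes above. Their summed signal, taken back from the log2 scale, was 8530 on replicate 1 and 1469 to 1471 on replicates 2 and 3, against 1390 to 1513 on the controls. KRT19, a luminal keratin chosen after its values were seen, lay 3.30 above its control mean and made up 6630 of the sum on replicate 1. Without it the sum was 1900 on replicate 1 and 788 to 790 on replicates 2 and 3, against 730 to 791 on the controls. Fibroblast markers were above for 7 of 7, their bins holding 77.3% (summed signal 2610 on replicate 1, 979 to 989 on replicates 2 and 3, and 967 to 1092 on the controls). Endothelial markers, among them the endothelial cadherin CDH5, were above for 8 of 8, their bins holding 81.1% (1886 on replicate 1, 796 to 820 on replicates 2 and 3, and 762 to 848 on the controls). Leukocyte markers were above for 6 of 7, their bins holding 76.6%, yet their summed signal was lower (1005 on replicate 1, 2002 to 2066 on replicates 2 and 3, and 2017 to 2163 on the controls). The macrophage marker CD68, chosen after its values were seen, lay -2.81 from its control mean. It was the brightest of the 7 on the controls, with a mean of 10.77 against 7.38 for the next, CD14. As the other 6 read higher on replicate 1, the lower sum rests on CD68 alone. Markers of the line itself were above for 2 of 9, their bins holding 15.3% (16393 on replicate 1, 29650 to 29977 on replicates 2 and 3, and 29256 to 29710 on the controls). On the control arrays PGR, PTPRC, LYZ, CD2, KDR, TEK, LUM and POSTN lay below the 95th percentile of the negative controls. The part of other cell types in the readings of replicate 1 was not tested.

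Without replicate 1 the same marker lists gave 0 calls by limma. The 2 genes per list of lowest unadjusted p over the 5 arrays differed by 0.16 (LGALS1) and -0.081 (S100A4) for the line itself, and by 0.18 (SPDEF) and 0.11 (CD24) for luminal cells. They differed by -0.30 (LYZ) and -0.23 (CD3E) for leukocytes, by 0.082 (TIE1) and -0.076 (ERG) for endothelium, and by -0.16 (PDGFRA) and -0.087 (COL1A2) for fibroblasts.

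The genes most like 3 of the members over the 6 arrays were taken by the root mean square difference of profiles centred on each gene's control mean. For CTNNB1 they were FAM72A (0.020), RPL38 (0.032) and FAM72B (0.033), which lay -5.05, -5.05 and -5.07 from their control means on replicate 1. RPL38 encodes a ribosomal protein, and FAM72A and FAM72B are near-identical copies whose probe sets may share signal. On replicate 1 FAM72A and FAM72B, like CTNNB1, read below the 95th percentile of the negative controls, so their differences are those of background readings. For CDH1 they were SP9 (0.043), SSUH2 (0.044) and LMNTD2 (0.055), and for CDH11 ALPL (0.047), which encodes an alkaline phosphatase, FYB2 (0.049) and ADSS1 (0.052). The CDH1 profile is itself one of readings below that percentile on all 6 arrays. These likenesses rest mainly on replicate 1 and come with no test.

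Other genes of the junction and of its control likewise gave no call. Over 9 lists of 127 genes, of which 120 were measured, 0 passed limma's test over 5 or 6 arrays and 1 had an unadjusted p under 0.05 over 5 arrays (0.833%, against 4.44% of all genes). The median difference of the 120 genes was 0.0023, with 61 above 0 and 59 below, and the medians of the lists ran from -0.029 to 0.035.

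Among 20 partners that bind the cadherin-catenin complex or its actin link, 12 lay above 0 and 8 below. CTNNA2, the neural alpha-catenin, differed by -0.16 (SE 0.091), and the adhesion receptor NECTIN1 by -0.14 (SE 0.084). Of 17 other cadherins, 7 lay above and 10 below, with the muscle cadherin CDH15 at -0.18 (SE 0.084) and CDH23, a cadherin of sensory hair cells, at -0.17 (SE 0.095). On replicate 1, 17 of these 17 cadherins read above their control means, with a median of 1.44, where their bins of control signal held on average 84.0% of genes above. CDH6, CDH8, CDH9, CDH10, CDH17 and CDH19 had control signals below the 95th percentile of the negative controls. Of these, CDH8, CDH9, CDH10 and CDH19 also stayed below that of replicate 1 on that array. The complex partners were split 10 and 10 with a median of 0.088, where their bins held 39.9%. Desmosome genes were 4 above and 8 below of 12, with the plaque protein PKP1 at 0.18 (SE 0.082) and the desmosomal cadherin DSG3 at -0.17 (SE 0.12). CTNNA2, PKP1 and DSG3 had control signals below the 95th percentile of the negative controls. Of 12 tight junction genes 7 lay above and 5 below, with the tricellular junction protein MARVELD2 at 0.21 (SE 0.088) and claudin-4, CLDN4, at 0.20 (SE 0.14).

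The genes that set the free pool of beta-catenin and read out its activity passed no test either. Of 12 regulators of its turnover 7 lay above 0 and 5 below, with APC, the scaffold of the destruction complex, at 0.12 (SE 0.091) and the tankyrase TNKS2 at 0.088 (SE 0.073). Of 15 TCF/LEF factors, coactivators and WNT target genes 8 lay above and 7 below, with the stem cell receptor LGR5 at 0.22 (SE 0.098) and the coactivator PYGO2 at 0.10 (SE 0.078). The control signal of LGR5 was below the 95th percentile of the negative controls.

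Of 15 transcriptional regulators of cadherins and of epithelial genes 6 lay above 0 and 9 below. GRHL2, an activator of CDH1 in epithelia, differed by 0.27 (SE 0.099, unadjusted p = 0.030, limma adjusted p = 0.9998) and was the 1 listed gene with an unadjusted p under 0.05. It read 6.31, 5.22 and 5.14 on siPGC1alpha replicates 1, 2 and 3, against 4.92, 4.76 and 5.03 on the sicontrol arrays, below the 95th percentile of the negative controls on all 6. All 3 siPGC1alpha arrays were above the controls, as they were for 5.42% of all genes. On replicate 1, 58.8% of the genes of its bin of control signal lay below GRHL2. The epithelial splicing regulator ESRP1, also below that percentile, differed by -0.27 (SE 0.13). Of 9 genes of cadherin shedding and uptake 6 lay above and 3 below, with ARF6, a small GTPase of endocytosis, at -0.12 (SE 0.084) and ADAM10, the main protease that sheds E-cadherin, at 0.11 (SE 0.081). Of 10 EPCAM partners 5 lay above and 5 below, with the protease inhibitor SPINT1 at 0.13 (SE 0.096) and the protease ADAM17 at 0.18 (SE 0.15).

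**Figure D4:**
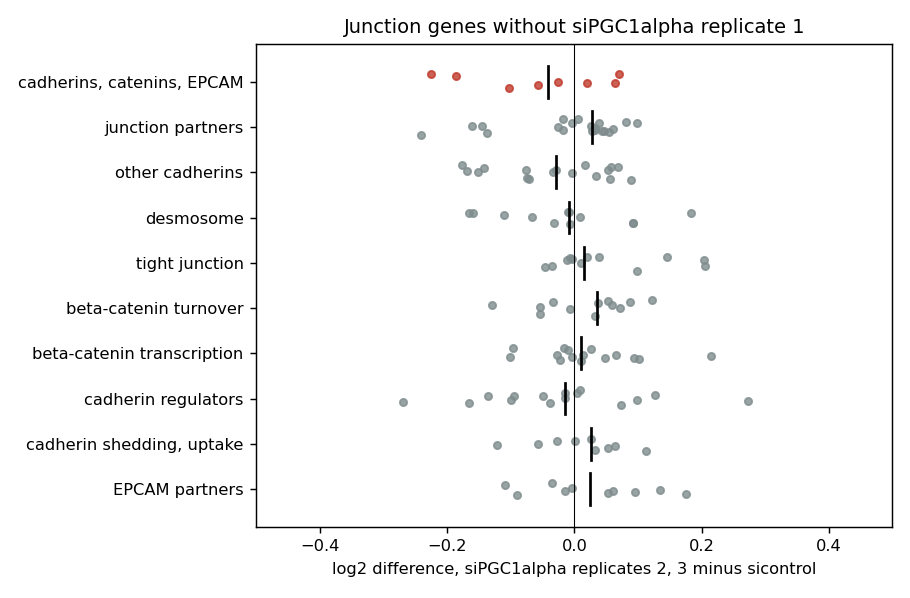
Log2 differences of single genes, siPGC1alpha replicates 2 and 3 minus sicontrol, for the 8 genes (red) and the 9 lists of junction genes (grey), with black lines at the medians and vertical scatter for display only. List medians lie between -0.029 and 0.035 and the median of the 8 genes is -0.042.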

How the data were processed

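Per the labels' protocols, sense-strand cDNA was made from 10 ng of total RNA and labelled for single-colour Affymetrix arrays. The authors deposited 1 value per probe set and array, taken here as log2 signal from its range. How they corrected background, summarised and normalized is not given in the sources. A further table with 6 columns whose names match no sample was not used. Of 24320 probe sets, 17709 had 1 gene symbol, 0 several and 6611 none, and all 17709 gene identifiers were found in RefSeq GRCh38.p14, altering 0 symbols. For 20 genes with several probe sets the one with the highest mean was kept, leaving 17687 genes. Samples were grouped by title. Differences between the groups came from lmFit and eBayes of limma 3.58.1 (R 4.3.3) on all genes, two-sided, with Benjamini-Hochberg adjustment at 0.05, over 6 arrays and without siPGC1alpha replicate 1. The fit was tested on simulated data in which no array stood apart, unlike the 6 arrays here. The members, the 14 lists and the leaving out of that array were chosen with earlier results of these data known. Named genes were the members, PPARGC1A, 2 genes per list, those of smallest unadjusted p over 5 arrays, and the 3 nearest profiles of CDH1, CDH11 and CTNNB1; further names were chosen after their values were seen. No detection call was used, and the number of arrays limits the precision. Varied were scaling, centring, dim-gene filters, probe set choice, features tested, variance model, replicate block, threshold, array weights and each array left out.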

Additional observations from a re-analysis of the deposited data

How the results depend on the processing

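The counts of 0 genes and 0 members passing were kept in both fits under quantile normalization, median centring, filters on dim genes (under the median or the 25th percentile), averaged probe sets, all probe sets that are not controls, trend and robust options, an adjusted p under 0.1, the replicate number as a block, and with any 1 array left out (0 in each case). The exception was the planned array weights over 6 arrays, which did not converge: 1639 genes and 1 member, CDH11 (limma adjusted p = 0.0064), passed with a weight of 33.6 on siPGC1alpha replicate 2 against 0.300 on replicate 3 and 0.011 on replicate 1. Weights estimated gene by gene, chosen after seeing the data, gave 0 genes and 0 members. The dim-gene filters left no value for CDH1 and CDH2, and that at the median none for CDH3 and CDH11 either. With the replicate block 0 genes passed over 5 arrays (1334 at an unadjusted p under 0.05, against 786 without the block) and 0 over 6. Over 5 arrays the block leaves sicontrol replicate 1 without a partner, so it adds nothing to the difference. The fit by limma without a block and without that array gave 1218 genes at an unadjusted p under 0.05. Same-numbered arrays, each centred on its group mean, gave correlations across genes of -0.25, -0.18 and -0.086. Since siPGC1alpha replicate 1 enters every centred value of its group, these cannot show whether the numbers pair the arrays. Without that array, the difference between replicates 2 and 3 in siPGC1alpha correlated at 0.038 with that in sicontrol. The numbers were not taken as pairs.

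Differences that changed sign against the 6-array fit did so where siPGC1alpha replicate 1 had little or no weight. With the planned weights CDH3 was at -0.28, CDH11 at -0.36, CTNNA1 at -0.091, CTNNB1 at 0.073 and JUP at -0.15. With weights gene by gene CDH1 was at -0.058, CDH3 at -0.14, CDH11 at -0.25, CTNNA1 at -0.056, CTNNB1 at 0.066, JUP at -0.16 and EPCAM at 0.0030. Leaving out each array in turn from the 6, CDH1 ran from -0.026 to 0.76, CDH3 from -0.10 to 0.70, CDH11 from -0.23 to 0.44, CTNNA1 from -0.058 to 0.59, CTNNB1 from -2.49 to 0.064, JUP from -0.19 to 0.62 and EPCAM from -0.32 to 0.019, in each case with the sign turned only without siPGC1alpha replicate 1. From the 5, CDH1 ran from -0.14 to 0.12, CDH2 from -0.041 to 0.18, CDH3 from -0.28 to 0.071, EPCAM from -0.12 to 0.16 and PPARGC1A from -0.0053 to 0.043, so their signs are not settled. CDH11, CTNNA1, CTNNB1 and JUP kept their signs with any 1 of the 5 arrays left out, but their limma intervals over the 5 arrays spanned both signs. The intervals ran from -0.47 to 0.018 for CDH11, -0.24 to 0.12 for CTNNA1, -0.11 to 0.24 for CTNNB1 and -0.41 to 0.041 for JUP. The signs of these genes are thus not settled either. The comparison with the further deposited table was not run: no column name there matches a label.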

Other observations

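Of 15 regulators of cadherin genes and epithelial genes, 12 read above their control means and 3 below on siPGC1alpha replicate 1, where their bins of control signal held on average 69.4% of genes above. The single genes named next were chosen after their values were seen, and a single array allows no test. ZEB1, a repressor of CDH1, lay -2.01 from its control mean and SNAI2 lay -1.65 from its own, close to the medians of their bins, -2.13 and -1.34. ZEB2 at 2.17 and TCF4 at 3.07 lay above 99.4% and 99.9% of the genes of their bins. GRHL1 at 2.17 and OVOL1 at 2.05, of the same list, lay above 97.5% and 96.2% of theirs. The control signal of GRHL1 was below the 95th percentile of the negative controls. Its reading of 5.64 on replicate 1 was also below that of this array, 6.57. EHF at -1.18 lay above only 18.4% of the genes of its bin. Its reading of 6.40 on replicate 1 was likewise below the percentile of that array. Without replicate 1 the differences of ZEB1, SNAI2, ZEB2 and TCF4 were -0.099, -0.049, 0.13 and -0.14.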
